A study of Mus musculus with 5 samples.

Results

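Probe sets that the platform annotation pairs with 2 or more gene symbols were examined as a group of their own on mouse whole-transcript arrays. Of 34760 probe sets, 1321 carried several symbols, 21640 carried 1 symbol and 11799 carried none in that annotation. The 1321 shared probe sets fell into 788 distinct sets of symbols with 2020 distinct symbols. Most often 2 symbols were listed, on 653 probe sets, and the longest entry held 20. Symbols placed each probe set in a family, in this order: histone (34 probe sets), ribosomal protein (209), small nucleolar RNA (17), microRNA (31) and predicted gene, which means a gene model named Gm or LOC with a number (430). The remaining duplicates were split into those whose symbols share their leading letters, such as Zscan4a and Zscan4b (410), and those whose symbols do not (190). A small nucleolar RNA listed with a ribosomal protein gene counted as ribosomal under this order.

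The arrays come from a single RNA immunoprecipitation (RIP) experiment in R1 cells, a male mouse embryonic stem cell line of strain 129X1 x 129S1 derived from the inner cell mass. Per the labels, every cell line was G418-resistant and carried a construct driven by the ubiquitous pCAGGS promoter: either the 3xN-FLAG vector (FLAG:Ctrl) or 3xN-FLAG fused to MKRN1 (FLAG:MKRN1), a makorin RING-finger protein with zinc fingers. The labels call the lines clones and do not say how many clones were used. Cells were thawed on embryonic fibroblast feeders, passaged on gelatin in LIF and serum, and lysed in polysome lysis buffer. There was 1 array for each of 5 RNA samples: the input of FLAG:Ctrl lysate, the input of FLAG:MKRN1 lysate, 1 anti-FLAG RIP from each of these lysates, and a RIP with control IgG from FLAG:MKRN1 cells. Without replicates no difference below has an error or a test, and each describes these 5 arrays alone. Where a pair of input or control RIP values is given, the FLAG:Ctrl array comes first and the FLAG:MKRN1 input or the IgG RIP second.

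A probe set counts as shared here when the annotation lists several symbols for it, as can happen where genes arose by recent duplication or overlap. What its probes match was not checked. Some entries repeat the same symbol, as for 2610318M16Rik. Replication-dependent histone genes lie in clusters of near-identical copies, are transcribed in S phase, and yield mRNAs that end in a stem-loop in place of a poly(A) tail. Ribosomal protein genes are single functional genes accompanied by many processed pseudogenes, that is, reverse-transcribed copies scattered over the genome. Small nucleolar RNAs guide modification and processing of ribosomal RNA and are mostly cut out of introns of a host gene, so that a probe set can name both guide and host. In each of these cases the signal can be a sum over copies, and which copy gave it is not resolved.

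The lowest score among shared histone probe sets belonged to H2B, although an H2A probe set also scored low, at -2.48. Histone H2B promoters are known for an octamer that binds POU-domain factors, spelled ATTTGCAT (ATGCAAAT on the other strand). It was searched on both strands of the 250 bases before each start in RefSeq promoters of assembly GRCm38.p6. It occurred in 6 of 14 promoters of the H2B symbols listed on these probe sets (42.9%), in 5 of 16 H2A promoters (31.2%), in 0 of 10 H3 and 0 of 11 H4 promoters, and in 526 of all 32851 promoters (1.60%). The pentamer CCAAT, also searched on both strands, lay in 14 of 14 H2B, 16 of 16 H2A, 8 of 10 H3 and 3 of 11 H4 promoters, against 33.8% of all promoters. Stretches of 4 H2B promoters are shown with the octamer in capitals, because H2bc3 and H2bc14 also have probe sets of their own that fell with the shared ones while that of H2bc8 did not, and H2bc12 is measured by shared probe sets alone. H2bc3 lies at chr13:23746614-23746681, H2bc14 at chr13:21721989-21722043, H2bc8 at chr13:23571311-23571378 and H2bc12 at chr13:22035761-22035820, all on the plus strand upstream of the gene. A match describes the letters only.
H2bc3: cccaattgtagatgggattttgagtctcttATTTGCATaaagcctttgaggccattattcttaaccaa
H2bc14: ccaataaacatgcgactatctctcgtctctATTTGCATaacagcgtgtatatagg
H2bc8: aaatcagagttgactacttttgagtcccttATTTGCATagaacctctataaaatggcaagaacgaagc
H2bc12: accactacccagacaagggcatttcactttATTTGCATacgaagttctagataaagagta

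Among the microRNA probe sets, 1 listing a let-7 gene with the long noncoding RNA Lncppara had the family's single call, which was higher. Of 67 microRNA symbols on shared probe sets, 37 matched a mature sequence in RefSeq (GRCm38.p6), counted after the entries of a single chromosome were left out. The let-7 mature strands are shown with the seed (bases 2 to 8) in capitals, next to those of 2 microRNAs whose probe sets were not called, miR-503 and the muscle microRNA miR-133b. Mirlet7b (chr15:85707325-85707346) and Mirlet7c-2 (chr15:85706616-85706637) share the seed GAGGUAG. Mir503 (chrX:53054027-53054049) and Mir133b (chr1:20682834-20682855) have other seeds.
let-7b-5p: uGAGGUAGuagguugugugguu
let-7c-5p: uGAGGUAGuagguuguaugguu
miR-503-5p: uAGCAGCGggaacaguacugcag
miR-133b-3p: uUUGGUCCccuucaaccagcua

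Values are the deposited log2 signals, and a difference of 1 is 2-fold. A level filter kept the upper portion of the table, meaning a 5-array mean no lower than 5.76, the median of those means. It kept 705 of the 1321 shared probe sets and 17380 of all, and a probe set high on a single array can pass it on that array alone. Array medians ran from 5.68 to 5.88, and the anti-FLAG RIP from FLAG:MKRN1 cells had the narrowest spread (SD 2.19 against 2.28 to 2.35). Mkrn1 itself did not separate the lines (11.80 and 11.71 in the inputs), so that array is called the MKRN1-labelled RIP, and directions drawn from it rest on its label. All 8 stem cell markers passed the filter, at 8.29 to 13.6 in the inputs. Of 8 feeder fibroblast markers 4 passed, at up to 9.88, the lowest of the 8 being 3.75, and their part in the results was not tested.

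Shared probe sets lay on both sides of the control RIPs on the MKRN1-labelled array: 331 of 705 were above both control RIPs and 276 below both, by any amount. To be called higher, a probe set had to exceed each control RIP by 2-fold or more and also exceed the input of its lysate. To be called lower it had to meet the mirror image of both conditions. By this rule 33 of 705 were higher (4.68%) and 47 were lower (6.67%). Over all probe sets above the filter the shares were 2.73% and 7.03%, and over those of 1 symbol 1.24% and 5.95%. As deposited, the lower share therefore lay near these 2 shares, and the higher share lay above both. Probe sets with no symbol enter only the share over all and were not counted apart. A higher share particular to shared probe sets can therefore not be read from this. With the FLAG:Ctrl RIP in the same role 1 shared probe set was higher and 5 lower, and with the IgG RIP 5 and 4, counts that are small by construction because they need the control RIPs to lie apart. Called probe sets were higher in 41.2% of cases as deposited, in 26.6% with each array centred on its median (25 higher, 69 lower) and in 54.2% after quantile normalization (45 higher, 38 lower). Centring moved the median difference of all probe sets from 0.00 as deposited to -0.20 (FLAG:Ctrl RIP) and -0.18 (IgG RIP).

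**Figure D1:**
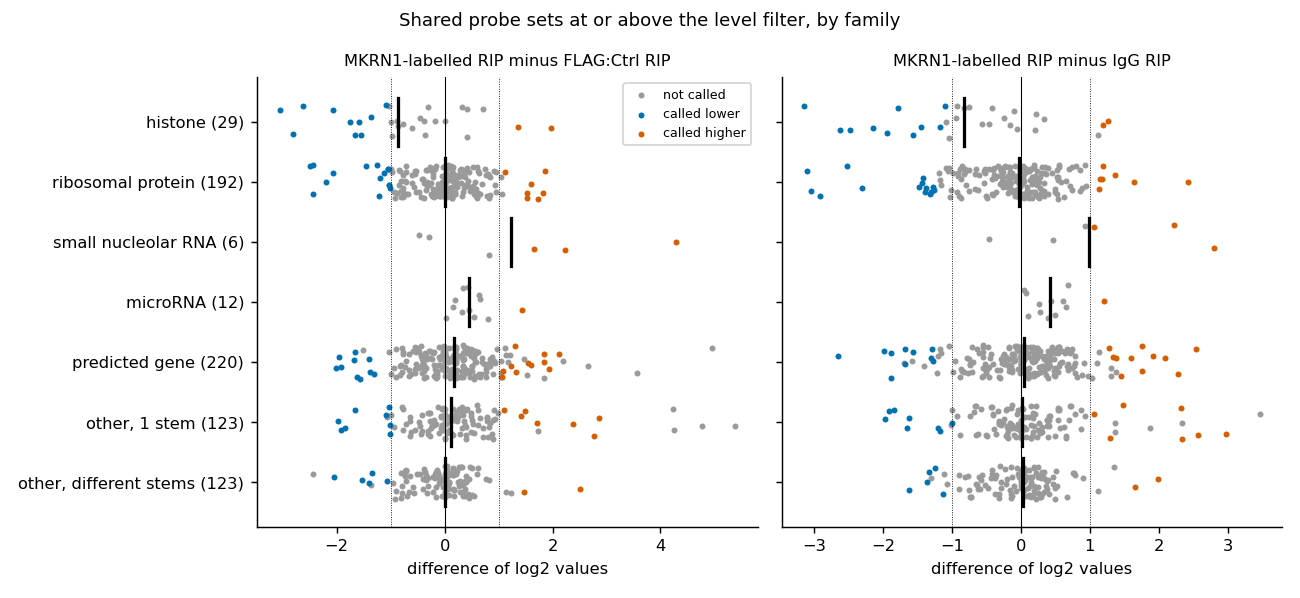
Each point is 1 shared probe set above the level filter, placed by its log2 difference between the MKRN1-labelled RIP and the FLAG:Ctrl RIP (left) or the IgG RIP (right); black bars are family medians, dotted lines mark 2-fold and numbers in brackets count probe sets. Histone probe sets lie mostly left of 0, with medians of -0.86 and -0.83, while all 12 microRNA probe sets lie right of it.

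Histones stood lowest of the families. The 29 histone probe sets above the filter had medians of -0.86 and -0.83 against the control RIPs and -1.23 against their own input, and the first 2 stayed below 0 under each scaling tried (-1.06 to -0.54). Of them 10 were called lower (34.5%) and 2 higher (6.90%), against 7.03% and 2.73% of all probe sets above the filter. Probe sets of a single histone symbol had medians of -0.46 and -0.34, with 11 of 32 called lower and 2 higher. The control RIPs also lay below their inputs for shared histone probe sets, by medians of -0.29 and -0.30, so the input comparison holds a part that the control RIPs show too. Between the inputs the family differed by a median of 0.15.

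H2B, a core histone of the nucleosome, held the lowest score. Probe set 10403980, which lists 15 symbols, read 8.49 in the MKRN1-labelled RIP, against control RIPs of 11.55 and 11.63 and inputs of 11.44 and 11.63. The other arrays lay within 0.19 of each other, and the MKRN1-labelled RIP was 8.33-fold and 8.85-fold below the control RIPs. Probe set 10408210, with 14 symbols, read 9.74 there against 12.37 on both control RIPs and 12.37 and 12.47 in the inputs, which is 6.15-fold below both. Probe set 10408087 read 9.08 against 11.15 and 11.23 in the control RIPs and 11.15 and 11.22 in the inputs. For these 3 the 4 other arrays were close together and the MKRN1-labelled RIP alone was low. Probe set 10403948 read 10.77 against 12.32 and 12.34 (inputs 12.31 and 12.50). In probe set 10403978 the control RIPs, at 10.72 and 10.91, lay above the inputs, at 9.55 and 10.20, while the MKRN1-labelled RIP lay below them at 8.97. The sixth, 10408070, missed the rule at -1.04 and -0.95. All 6 H2B probe sets were thus lower than in both control RIPs, by scores from -3.06 to -0.95, where the score is the smaller in size of the differences from the control RIPs.

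H3 gave a mixed picture under a single list of 12 symbols. Its 9 probe sets ranged from -1.58 to 1.35 against the FLAG:Ctrl RIP. Probe set 10494405 read 7.68 in the MKRN1-labelled RIP, against control RIPs of 9.26 and 9.13 and inputs of 10.45 and 10.77. Probe set 10408202 read 7.23, against 8.59 and 8.40 in the control RIPs and 9.67 and 10.06 in the inputs. Both were called lower, and in both the control RIPs also lay more than 2-fold below input. The score of 10408202 was -1.17, and -0.98 once the trend of the difference with signal level was removed, which ends the call. Probe set 10403941 went the other way, at 8.13 against 6.78 and 6.87 in the control RIPs, and was called higher. Its inputs were 8.21 and 5.48, so that the MKRN1-labelled RIP matched the FLAG:Ctrl input and stood 6.27-fold above the input of its own lysate.

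The other histone classes held single calls in either direction. Of 5 H4 probe sets, 10404067 was lower (9.39 against 10.48 and 10.50, inputs 11.04 and 11.10), although its score of -1.10 shrank to -0.80 after quantile normalization. The H4 probe set 10403945, which lists H4c17 and H4c11, was called higher, at 8.53 against 6.57 and 7.34 with inputs of 7.46 and 8.13. Of 6 probe sets for H3.3, the replication-independent variant encoded by H3f3a and H3f3b, 1 was lower: 10412378 read 10.89 against 12.56 and 12.69, with inputs of 12.70 and 12.66. The H2A probe set 10494386, with 19 symbols, was called lower, at 5.63 against 8.45 and 8.11. Its score of -2.48 lay below those of several H2B probe sets, but its inputs were themselves apart at 7.99 and 6.32. Testis variants of the H2al and H2aw type made up 6 probe sets, and 1 of them passed the filter.

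**Figure D2:**
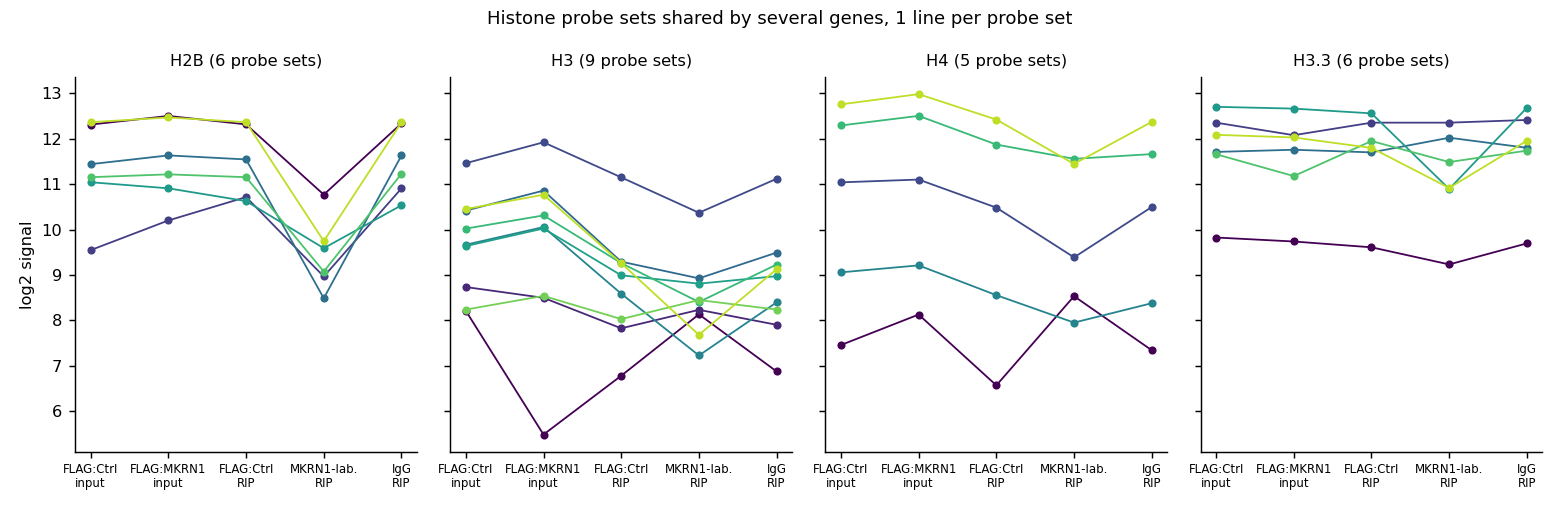
Log2 signal of each shared histone probe set (1 line each) on the 5 arrays, for H2B, H3, H4 and H3.3. All 6 H2B lines dip on the MKRN1-labelled RIP, by 0.95 to 3.06 in score, while H3 lines run both ways, and 1 of them, 10403941, stands at 5.48 in its own input and 8.13 in that RIP.

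Histone genes with a probe set of their own could be set beside the shared ones. H2bc3 was lower by -2.39 and -2.32 against the control RIPs and H2bc14 by -2.28 and -2.14, and H2bc1 and H2bc9 scored -1.83 and -1.32. H2bc22 (0.00 and 0.00), H2bc4 (0.50 and 0.09) and H2bc8 (-0.10 and -0.09) were not lower, so the low shared H2B signal did not extend to every H2B gene measured alone. H4c4 (-1.86) and H4c6 (-1.21) scored low, whereas H4c9 differed by 0.14 from both. H3c15 was higher, by 2.58 and 2.32. Of 10 called histone probe sets whose genes had probe sets of their own, 8 had at least 1 called the same way. Many of these lists are long, so several probe sets could supply a match, and the H2B lists name nearly the same genes. Taken as pairs of a called shared and an own probe set, 23 of 44 were called the same way. The 11 histone mRNA processing genes examined, among them Slbp, which binds the histone stem-loop, all passed the filter. Of these 2 were called lower and 0 higher (7.03% and 2.73% of all probe sets), with medians of -0.52 and -0.62.

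Ribosomal protein probe sets centred on 0 and spread both ways. Their 192 members above the filter had medians of 0.01 and -0.03 against the control RIPs, which became -0.20 and -0.20 with array centring and 0.07 and 0.04 after quantile normalization. Called higher were 7 (3.65%) and called lower 14 (7.29%), against 3 and 9 of 184 single-symbol ribosomal probe sets. Both shares lay near those of all probe sets above the filter, 2.73% and 7.03%. For 200 of the 209 the listed genes lay on several chromosomes. Some lists, such as Rpl21 with Camkv or Rpl11 with Brf2, name no Gm model or pseudogene, so this count does not measure processed copies.

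In 3 of the 15 ribosomal lists of symbols with 5 or more probe sets, calls went opposite ways within the same list. There were 6 probe sets listing Rpl11, a large-subunit protein, with Brf2, a subunit of a polymerase III initiation factor. Of these, 10451301 read 7.06 in the MKRN1-labelled RIP, against control RIPs of 9.56 and 10.17 and inputs of 9.24 and 9.36, and 10454097 read 10.57 against 12.76 and 12.87 with inputs of 12.52 and 12.68. Both were low on that array alone, 5.65-fold and 4.58-fold below the FLAG:Ctrl RIP. Another, 10502745, was high on the same array at 11.78, against 10.26 and 10.63 with inputs of 9.44 and 9.78, and its score of 1.15 became 0.97 with array centring. The symbols Gm6133, Rpl17 and Hk1 gave 13 probe sets, of which 10513737 was lower (5.72 against 8.16 and 8.77, inputs 6.78 and 6.24) and 10456709 higher (10.92 against 9.32 and 9.73, inputs 8.59 and 8.73). For 10513737 the control RIPs had risen above input, so that the MKRN1-labelled RIP differed from its input by only -0.51. Rps2 with Gm10653 had 10421683 lower (6.43 against 7.68 and 7.81, inputs 7.62 and 7.92) and 10395922 higher (8.69 against 7.58 and 7.51, inputs 7.41 and 7.65), the latter short of 2-fold with array centring at 0.91. Rpl21 had a call in each direction under separate lists: 10443492, which names Camkv, a kinase-like gene, and Cep170 as well, was lower (8.52 against 10.58 and 11.05, inputs 9.93 and 10.29), and 10366665, which names Camkv alone beside Rpl21, was higher (9.49 against 7.67 and 7.84, inputs 7.03 and 7.37). Such pairings of symbols are as the annotation gives them, and what ties Brf2, Hk1 or Camkv to these probes is not given there.

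For Rpl29, a large-subunit protein gene, every call pointed 1 way. It had 31 shared probe sets, 26 above the filter, of which 8 were called lower and 0 higher, against 7.03% and 2.73% of all probe sets. The 26 had medians of -0.64 and -0.60 and a range from -2.43 to 0.93 against the FLAG:Ctrl RIP. The lowest, 10490824, read 6.31 against 8.75 and 9.24 in the control RIPs and 8.55 and 8.47 in the inputs. The MKRN1-labelled RIP was the low array there, 5.40-fold and 7.60-fold below the control RIPs. Of the 8, 4 missed 2-fold after quantile normalization, with scores of -0.87 to -0.74, and 10430743 did so (-0.54) when values under the filter level were raised to it. The probe set of Rpl29 alone differed by -0.63 and -0.91 and was not called. Rpl21 leaned the other way in its own probe sets, with a median of 0.74 and 0.76 over 4 against -0.47 and -0.53 over 21 shared ones, although 1 of the 4 lay at -0.70 from the IgG RIP.

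Several ribosomal genes had no call or a single one. None of 9 probe sets of Rpl31 was called, and they ranged from -0.00 to 0.61 against the FLAG:Ctrl RIP. Rps23 and Rpl15 had 6 each above the filter and 0 calls. Rpl12 had 1 call among 7: 10415640, which lists Rpl12 with its intronic guide RNA Snora65, read 10.02 in the MKRN1-labelled RIP, against control RIPs of 8.16 and 7.59 and inputs of 7.51 and 7.76. That is 3.64-fold and 5.38-fold above the control RIPs, whereas the probe set of Rpl12 alone differed by -0.06 from both. Rpl35a listed with Ino80 had 10435455 higher (8.94 against 7.42 and 7.57, inputs 7.17 and 7.30), and Rpl30 had 10537349 higher (9.93 against 8.20 and 8.80, inputs 8.38 and 8.18), which scored 0.95 with array centring. Rpl7a had 10568532 lower (7.37 against 8.50 and 8.81), at -0.99 after quantile normalization. Its inputs were 7.40 and 7.95, so the control RIPs lay 1.10 and 0.86 above input and the MKRN1-labelled RIP -0.58 from it. Of 21 called ribosomal probe sets with any listed gene measured on its own, 0 had such a probe set called the same way. For Rpl11, Rpl17 and Rpl35a that gene was a partner symbol. These ribosomal genes themselves had 0 probe sets of their own above the filter.

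**Figure D3:**
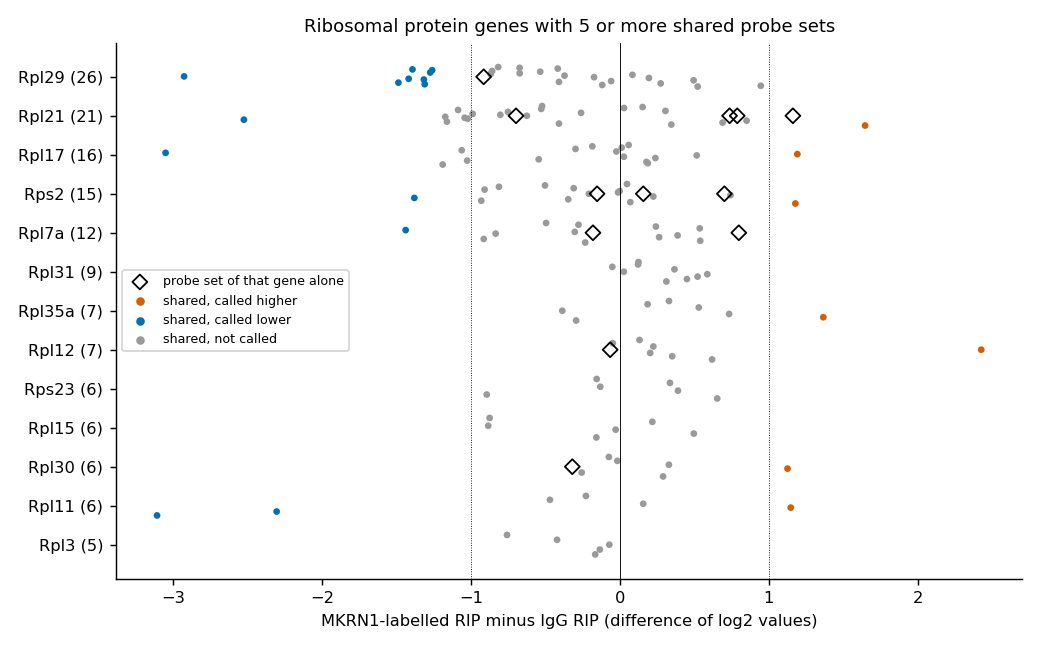
Log2 difference between the MKRN1-labelled RIP and the IgG RIP for shared probe sets of ribosomal protein genes with 5 or more above the level filter (points) and for probe sets of the gene alone (diamonds); numbers in brackets count shared probe sets and dotted lines mark 2-fold. Within Rpl11 and Rpl17 the points run from about -3 to past 1, while the 9 points of Rpl31 stay between -0.05 and 0.59.

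Small nucleolar RNA probe sets stood highest of the families. Of the 17, 6 passed the filter, and 3 of these were called higher and 0 lower, against 2.73% and 7.03% of all probe sets. The 6 had medians of 1.24 and 0.99 against the control RIPs, positive under each scaling tried. The size of these medians follows the filter: they were 0.33 and 0.46 over all 17 and 2.97 and 1.93 under a filter raised to the 75th percentile. Single-symbol probe sets of the class had medians of 1.16 and 0.68, with 17 of 40 higher and 3 lower. Snord14d and Snord14c, box C/D guide RNAs from introns of the chaperone gene Hspa8, gave the largest value: 10584576 read 10.15 in the MKRN1-labelled RIP, against control RIPs of 5.87 and 7.35 and inputs of 7.18 and 8.53. It stood 19.5-fold and 6.97-fold above the control RIPs and 3.09-fold above its own input. The second, 10584578, read 8.64 against 6.40 and 6.42, with inputs of 5.66 and 7.96. In both, the FLAG:MKRN1 input lay above the FLAG:Ctrl input, by 1.34 and 2.30, and the IgG RIP lay below the input of that lysate. The 3 probe sets of Hspa8 alone differed by 0.30, -0.28 and -0.38 from the FLAG:Ctrl RIP, and none was called.

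Hosts without a protein product behaved unevenly. Snora43 with its noncoding host Snhg7 read 9.23 against 7.57 and 8.18 (inputs 8.13 and 8.52) and was called higher, although its score of 1.06 became 0.88 with array centring. Snora24 with Snhg8 read 7.27 against 7.55 and 6.81 and fell between the control RIPs. Snord7 with AI450353 lay lower by -0.47 against both. The Snord116 entry, from the imprinted Prader-Willi region, had 7 probe sets, of which 1 passed the filter, at 7.17 against 6.36 and 6.24. Taking any probe set with a guide RNA symbol, ribosomal hosts included, 4 of 10 above the filter were higher and 0 lower. Over all probe sets the shares were 2.73% and 7.03%. The medians of the 10 were 0.71 and 0.91. Snord14a with Rps13 (0.61 and 0.80) and Snord68 with Rpl13 (0.54 and 0.88) were not called. Snord34 with Rpl13a was 2.44 and 2.15 above the control RIPs but below the level filter. Of 13 genes for snoRNP proteins above the filter 2 were lower and 0 higher (7.03% and 2.73% of all probe sets), with medians of -0.24 and -0.46.

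Small structured RNAs outside the guide series were picked out after their values were seen. Rnu1b genes encode U1 RNA, which recognises the splice donor site. Probe set 10500356 of Rnu1b read 10.48 in the MKRN1-labelled RIP against 7.63 and 7.51 in the control RIPs and 7.71 and 7.93 in the inputs, so 7.24-fold and 7.87-fold above the control RIPs. A second, 10351515, read 9.60 against 8.11 and 8.31, with inputs of 8.22 and 8.63, and both were called higher. The third, 10512937, was high in both anti-FLAG RIPs, at 11.22 from FLAG:Ctrl and 11.58, with 9.71 in the IgG RIP and 8.33 and 8.76 in the inputs, and was not called. Rnu3b genes encode U3 RNA, which acts in ribosomal RNA processing, and 10380065 read 8.23 and 8.67 in the control RIPs and 9.46 and 9.94 in the inputs, with the MKRN1-labelled RIP 6.80-fold and 5.05-fold above the control RIPs and 1.06 above its own input on the log2 scale. Here the MKRN1-labelled RIP lay above and both control RIPs below the inputs. Rn7s1 and Rn7s2, genes for the 7SL RNA of the signal recognition particle, were lower in every RIP (10.96, 11.29 and 9.92) than in the inputs (13.37 and 13.43). The 3 probe sets listing Rnu2-10, a U2 RNA, with Rdm1 were likewise below input in all RIPs.

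**Figure D4:**
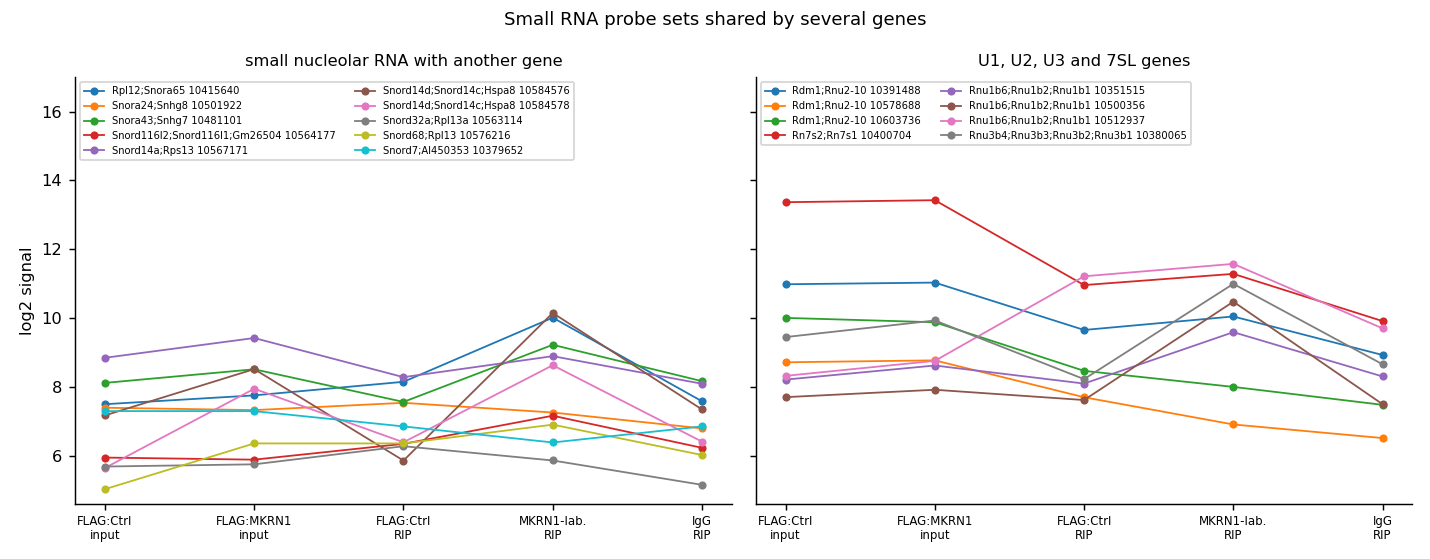
Log2 signal on the 5 arrays of shared probe sets naming small nucleolar RNAs (left, the 10 above the level filter) and U1, U2, U3 or 7SL RNA genes (right); each line is 1 probe set. The lines of Snord14d and Snord14c with Hspa8, Snora43, Snora65, U3 and U1 peak on the MKRN1-labelled RIP. Snord14a with Rps13 peaks in the FLAG:MKRN1 input, at 9.43 against 8.90 in that RIP. The 7SL line drops from 13.4 in the inputs to between 9.92 and 11.3 in the RIPs.

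MicroRNA probe sets leaned upward by small amounts. Of 31, 12 passed the filter, with medians of 0.45 and 0.42 against the control RIPs that became 0.24 and 0.24 with array centring. As deposited, all 12 lay above both control RIPs, against 331 of the 705 shared probe sets. Several also list another gene, such as Ftl1, Eef1a1 or Dnaja1, and which listed gene gave the signal is not resolved. The probe set naming nothing but a microRNA and its microRNA-named host, Mir22 with Mir22hg, differed by 0.017 and 0.040. Single-symbol microRNA probe sets had medians of 0.61 and 0.48 over 63. The single call among the 12 (8.33%, against 2.73% of all) went to Lncppara with Mirlet7b, whose sequence is given above. Its probe set 10425985 read 7.64 against 6.20 and 6.43, with inputs of 6.51 and 6.52. Its neighbour with Mirlet7c-2 read 6.03 against 4.98 and 4.74, with inputs of 5.05 and 5.05, and lay below the level filter. The control RIPs and inputs were close together for both let-7 probe sets, and the MKRN1-labelled RIP was the high array. Lincmd1 with Mir133b read 6.98 against 6.32 and 6.32, Mir503 with its host read 6.35 against 6.00 and 5.85, and Mir22 with Mir22hg read 6.17 against 6.16 and 6.13. The probes are of a transcript array and a mature strand cannot be told from its precursor or host.

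Predicted genes formed the largest family. Of 430 probe sets 220 passed the filter, with medians of 0.17 and 0.04 that turned to -0.03 and -0.14 with array centring. Of the 220, 11 were higher (5.00%) and 10 lower (4.55%), against 2.73% and 7.03% of all probe sets. The highest score, 2.08, belonged to 10417408, which lists only Gm models and read 7.74 against 5.62 and 5.65, with inputs of 5.90 and 6.12. Hnrnpa3, an RNA-binding protein gene, with Gm6793 gave 10528200 at 8.42 against 6.59 and 6.51 (inputs 7.13 and 7.25), and 4 more above the filter that were not called (-0.90 to 0.92 against the FLAG:Ctrl RIP). Gapdh, the glycolytic enzyme, gave 2 higher probe sets with its Gm copies, of which 10580590 read 9.65 against 7.80 and 7.89 with inputs of 8.49 and 8.62. The other, 10579769, scored 0.95 once dim values were raised to the filter level. Ramac with Gm10767 (10.00 against 8.71 and 7.47, inputs 7.14 and 7.24) was above input in the FLAG:Ctrl RIP too. Sec61g, a subunit of the endoplasmic reticulum translocon, scored 1.09 at a high level (13.37 against 12.28 and 12.04), and 0.88 with array centring. An interferon zeta entry, Ifnz, scored 1.59.

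Among the lower predicted-gene probe sets, Jpt2 with 12 Gm or Rik models, 10412517, read 6.23 against 8.18 and 8.21, with inputs of 8.68 and 9.42, while the probe set of Jpt2 alone differed by 0.41 and 0.77. Sms, spermine synthase, with Gm8234 read 10.00 against 11.67 and 11.89 (inputs 11.29 and 11.42). Ahcy, which hydrolyses S-adenosylhomocysteine, with Gm4737 read 6.69 against 8.25 and 8.25 (inputs 8.71 and 8.44). Cdv3 with Gm13238 read 11.96 against 13.35 and 13.26 (inputs 13.49 and 13.29), and the probe set of Cdv3 alone differed by 0.00 and 0.07. In these 4 the MKRN1-labelled RIP was the lowest array. Ptp4a1, a phosphatase gene, read 4.36 against 6.29 and 7.03 (inputs 6.57 and 5.86), and scored -0.53 once dim values were raised to the filter level. Hmgb1, a chromatin protein gene with 18 probe sets above the filter under 1 list of symbols, had 1 higher (9.55 against 7.95 and 7.27, inputs 8.32 and 7.80) and 1 lower (5.24 against 6.65 and 7.13), and the others were not called. For the lower one the inputs were 5.17 and 5.31, so the control RIPs stood above input and the MKRN1-labelled RIP near it.

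Duplicates named by shared letters held 7 higher and 8 lower of 123 (5.691% and 6.504%, against 2.73% and 7.03% of all). As deposited, the lower share lay near that of all probe sets and the higher share above it. The family medians of 0.12 and 0.02 turned to -0.08 and -0.16 with array centring. Besides the U1 and U3 entries, the alpha-defensin set 10570700 was higher, at 11.07 against 8.69 and 8.50. Its inputs were 8.93 and 5.87, so the difference of 5.20 from its own input goes with a low FLAG:MKRN1 input. Sprr2a, a cornified-envelope gene pair, scored 1.41 and a vomeronasal receptor pair, Vmn1r41 and Vmn1r53, 1.10 (0.90 with array centring). Olfactory and vomeronasal receptors made up 151 shared probe sets, of which 5 passed the filter. Among the lower ones, the tubulin pair Tuba1b and Tuba1c read 9.74 against 11.72 and 11.72, with inputs of 12.10 and 12.04. Tdg, a DNA repair glycosylase, read 9.29 against 11.22 and 11.21 (inputs 11.40 and 10.55), Ppp1r2, a phosphatase inhibitor, 9.28 against 10.94 and 11.12 (inputs 10.77 and 10.97), and Stxbp3 7.33 against 9.18 and 8.99 (inputs 8.79 and 8.79). Each listed a pseudogene beside the gene apart from the tubulins. The probe set of Stxbp3 alone was also lower (-1.39 and -1.11), and that of Ppp1r2 was not (-0.24 and -0.24). Other probe sets with the same symbols as Tdg, Ppp1r2 or the tubulins and above the filter were not called: they differed from the FLAG:Ctrl RIP by -0.28 and -0.44 for Tdg and by -0.29 to 0.71 for Ppp1r2, and the 3 that list Tuba1a as well by -0.79 to 0.05.

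Duplicates with unlike symbols held 2 higher and 5 lower of 123 (1.63% and 4.07%, against 2.73% and 7.03% of all), at medians of 0.00 and 0.02. Actb with Actg1, the cytoplasmic actins, gave 10406417 at 7.95 against 9.99 and 9.57, with inputs of 10.16 and 9.91, whereas the probe set of Actb alone differed by -0.03 and -0.15. The other 3 probe sets of both actins were not called, with differences from the FLAG:Ctrl and IgG RIPs of -1.36 and -0.75 for 10393754, -0.67 and -0.42 for 10506424, and -0.00 and 0.38 for 10571653. Tubb4b with Zfp646 read 8.82 against 10.23 and 10.15 (inputs 10.16 and 10.15), and Zbed6 with Zc3h11a, in which it is nested, 9.09 against 10.62 and 10.46. Top2a, the mitotic topoisomerase, with Hibadh was higher, at 8.29 against 5.78 and 6.30 with inputs of 6.89 and 7.68, while Top2a alone was lower by -0.96 and -1.07. Nudt3 with Anks1 read 10.10 against 8.63 and 8.44 (inputs 8.34 and 8.29). Rian, an imprinted noncoding RNA that hosts guide RNAs, with AF357355 was 12.1-fold below its own input in the MKRN1-labelled RIP (6.70 against 10.30), with 9.13 and 7.51 in the control RIPs and 8.89 in the FLAG:Ctrl input.

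Across the called probe sets, 47 listed a gene that also had a probe set of its own above the filter, and in 9 of these such a probe set was called the same way: 8 histones and Stxbp3. Any listed symbol counted, partners included, and long histone lists offered more probe sets to match. Listed genes lay on several chromosomes for 460 shared probe sets (394 above the filter, 16 higher, 34 lower), on 1 chromosome without overlap for 722 (229, 12 and 12) and overlapped for 121 (73, 5 and 1). In this order the higher and lower shares were 4.06% and 8.63%, 5.24% and 5.24%, and 6.85% and 1.37%. Over all probe sets above the filter they were 2.73% and 7.03%. With at least 1 listed gene annotated as a pseudogene, 4.10% of 293 were higher and 8.53% lower, and without one 5.10% and 5.34% of 412. By length of the list, 15 and 23 of 402 with 2 symbols were higher and lower (3.73% and 5.72%). With 3 to 5 symbols 13 and 13 of 219 were (5.94% and 5.94%), and with 6 to 20 symbols 5 and 11 of 84 (5.95% and 13.1%). The group with 6 to 20 includes the H2B, H3 and H4 lists. Probe sets of 1 list are not independent, since they can read the same transcripts.

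Each RIP was then set against the input of its own lysate. In the MKRN1-labelled RIP 54 shared probe sets were at least 2-fold higher and 59 lower (7.66% and 8.37%, against 4.37% and 8.1% of all probe sets and 2.72% and 6.11% of those with 1 symbol). Of the 59, 17 were histones. In the FLAG:Ctrl RIP 16 were higher and 15 lower (2.27% and 2.13%, against 1.84% and 1.72% of all and 1.1% and 0.417% with 1 symbol), and in the IgG RIP 16 and 23 (2.27% and 3.26%, against 2.03% and 2.03% of all and 1.48% and 0.489% with 1 symbol). Highest in the FLAG:Ctrl RIP was the U1 probe set 10512937, at 2.89 above input, and lowest the 7SL probe set, at -2.41. In the IgG RIP a multicopy Y-linked Sly entry, 10608263, stood highest at 2.71 (8.60 against 5.89, with 7.01 in the MKRN1-labelled RIP), followed by the defensin set at 2.63, and 7SL again stood lowest at -3.51. Rpl7a probe set 10588026 was 2.29 above input in the MKRN1-labelled RIP and also above it in the control RIPs (6.74 and 6.06, inputs 5.55 and 4.31).

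Taking 1 control RIP at a time, 56 shared probe sets exceeded the FLAG:Ctrl RIP by 2-fold and 54 fell short of it by as much (7.94% and 7.66%, against 4.29% and 8.92% of all and 1.84% and 7.72% with 1 symbol). For the IgG RIP the counts were 47 and 69 (6.67% and 9.79%, against 3.99% and 9.03% of all and 1.75% and 7.62% with 1 symbol). These comparisons share the MKRN1-labelled array. The control RIPs themselves lay 2-fold apart for 30 shared probe sets, with the FLAG:Ctrl RIP higher in 12 and lower in 18 (1.7% and 2.55%, against 0.593% and 0.817% of all and 0.184% and 0.329% with 1 symbol). Of the 18, 9 belonged to the early-embryo clusters described next, with differences down to -5.31. The same clusters held 10 of the 56 that exceeded the FLAG:Ctrl RIP. The SD of the difference between the control RIPs was 0.56 over shared probe sets, these clusters included, and 0.32 over all.

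The largest difference between inputs among shared probe sets lay in a set of early-embryo gene clusters. This set was chosen after these same values were seen, so counts within it describe the choice and test nothing. Between the inputs 19 shared probe sets were at least 2-fold higher in FLAG:MKRN1 and 9 lower (2.7% and 1.28%, against 1.93% and 1.69% of all and 0.946% and 0.954% with 1 symbol). Zscan4 genes mark a rare state of stem cells that resembles the embryo at its earliest cleavage stage, in which Usp17l genes and Eif1a-like Gm genes are also active. Zscan4 probe set 10549972 read 4.77 in the FLAG:Ctrl input, 10.02 in the FLAG:MKRN1 input, 5.32 in the FLAG:Ctrl RIP and, among the remaining RIPs, 10.70 (MKRN1-labelled) and 10.63 (IgG). Probe sets 10549964 and 10559978 of the same 5 symbols were 6.72 and 6.23 in the FLAG:Ctrl input and 10.46 and 10.98 in the FLAG:MKRN1 input. All 3 arrays of FLAG:MKRN1 lysate were high and both of FLAG:Ctrl lysate low. Since the IgG RIP was as high as the MKRN1-labelled RIP, none of the Zscan4 probe sets was called.

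Of the 12 shared probe sets of these clusters, Zscan4 included, 9 were at least 2-fold higher in the FLAG:MKRN1 input, the values they were picked by. Some, such as Cphx 10413250 with a 5-array mean of 5.93, pass the level filter through the arrays where they are high. Eif1a-like 10397541 was not, at 11.39 and 11.90 in the inputs, although it lists the same symbols as 10401829. Gm4027 with BB287469 read 4.83 and 9.85 in the inputs, 5.75 in the FLAG:Ctrl RIP and 10.71 and 10.81 in the FLAG:MKRN1 RIPs. The Eif1a-like set 10401829 read 8.26 and 11.31 in the inputs and 9.53, 12.19 and 12.001 in the RIPs, and the Gm4340 set 10366180 read 5.11 and 9.17, then 5.51, 9.07 and 10.77. The homeobox genes Cphx1 to Cphx3 had 10413250 at 3.82 and 8.28 in the inputs and 8.04 in the MKRN1-labelled RIP but 5.71 in the IgG RIP, while 10413260, with the same symbols, stayed between 6.13 and 6.71 on all arrays. Usp17l, which encodes deubiquitinating enzymes, was the 1 entry called higher, at 7.92 against 6.21 and 6.85 with inputs of 6.30 and 6.67, and scored 0.89 with array centring. In bulk RNA, more cells in such a state and more RNA per cell cannot be told apart, and line and lysate cannot be separated with 1 input each.

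**Figure D5:**
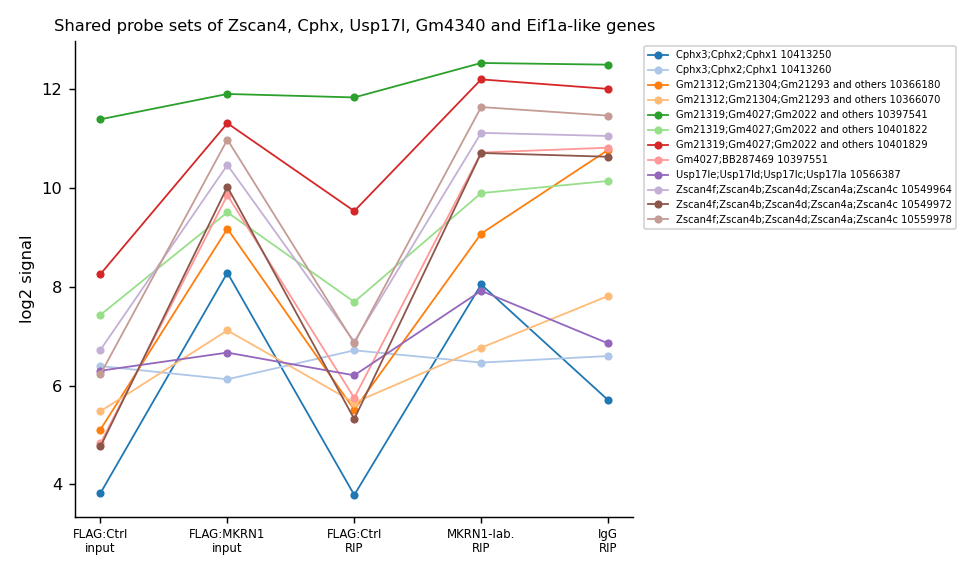
Log2 signal on the 5 arrays of the 12 shared probe sets of Zscan4, Cphx, Usp17l, Gm4340 and Eif1a-like genes, 1 line each. The 3 Zscan4 lines rise from 4.77 to 6.72 in the FLAG:Ctrl input to between 10.02 and 10.98 in the FLAG:MKRN1 input, and lie between 10.63 and 11.63 in both RIPs of that lysate.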

How the data were processed

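The authors deposited a table of log2 values, and the 5 samples were grouped by title. Biotin labelling followed standard Affymetrix practice, per the labels. That values are log2 was judged from their range. For background correction, summarisation, normalization and build the sources used here give nothing. Precision is limited by having 5 arrays, and intensity data carry no depth. Shared probe sets were found by a semicolon in the symbol field of the platform annotation, which can be old, and 5129 of 5161 gene identifiers matched RefSeq (GRCm38.p6), used for arrangement and biotype. Differences were taken without further scaling in Python 3.11.15 with pandas 2.3.3 and numpy 2.4.6, and figures in matplotlib 3.10.9. Calls, filter and score are defined in the text, and the call rule was tested on simulated data. Named probe sets were up to 8 per family at each end of the score among calls, up to 4 at each end of the difference from input in each RIP and between inputs, and up to 6 per family with a gene measured alone. Exceptions were chosen after seeing values. Members and lists were chosen with earlier results of these data known. Alternatives covered scaling, level filter, fold threshold, control RIP, use of input, 1 probe set per list and the family rule.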

Additional observations from a re-analysis of the deposited data

Results flagged for a closer look

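For 5 shared probe sets the MKRN1-labelled RIP and a control RIP lay at least 2-fold from their own inputs in opposite directions, with 1 array each, and the difference was not tested. Rnu3b (10380065, U3 RNA) was 1.06 above input in the MKRN1-labelled RIP and -1.22 and -1.27 from input in the FLAG:Ctrl and IgG RIPs. Snord14d and Snord14c with Hspa8 (10584576) stood at 1.63, against -1.31 and -1.17. The H3 probe set 10403941 stood at 2.65, against -1.43 in the FLAG:Ctrl RIP, but the IgG RIP stood at 1.39 from the same low input, in the direction of the MKRN1-labelled RIP. The H2B probe set 10403978 went the other way, at -1.23 against 1.17 in the FLAG:Ctrl RIP and 0.71 in the IgG RIP. Ptp4a1 with Gm13363 and Gm8783 (10353707) stood at -1.49, against 1.17 in the IgG RIP and -0.29 in the FLAG:Ctrl RIP.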

How the results depend on the processing

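With 1 array per group no replicate could be left out. No paired analysis was possible because each group holds 1 array and the labels carry no replicate numbers. Of the 80 calls, 72 held with arrays centred on their medians, 69 after quantile normalization, 69 with arrays centred on the median of probe sets above the filter, 69 after removing the dependence on signal level and 75 with values raised to the filter; 0 reversed. The centring above the filter, the trend removal and counting guide RNA symbols first were added after the data were seen. Split as higher and lower, the last 3 scalings gave 39 and 36, 43 and 38, and 32 and 43, so the higher share was 52%, 53.1% and 42.7%. Without a filter 51 were higher, the histone median against the FLAG:Ctrl RIP was -0.53, the guide RNA medians were 0.33 and 0.46, 32 were above input in the IgG RIP, and 31 and 14 differed between inputs. With the filter at the 75th percentile 18 were higher, the guide RNA medians were 2.97 and 1.93, 34, 7 and 6 were above input in the MKRN1-labelled, FLAG:Ctrl and IgG RIPs, 15 were below it in the IgG RIP, and 9 and 3 differed between inputs. With 1 probe set per list 16 were higher and 18 lower, the guide RNA median against the FLAG:Ctrl RIP was 0.82, and higher and lower counts were 24 and 25, 5 and 8, and 6 and 11 against input in the 3 RIPs and 10 and 5 between inputs. At 1.5-fold the calls were 78 and 111, and the other counts, in the same order, 116 and 121, 52 and 36, 76 and 49, and 36 and 23. At 4-fold they were 6 and 9, then 12 and 13, 2 and 1, 4 and 7, and 9 and 2. The FLAG:Ctrl RIP alone gave 53 higher. When all symbols had to belong to the family, the microRNA values were 0.017 and 0.040, resting on 1 probe set (Mir22 with Mir22hg), and the predicted gene medians 1.04 and -0.30. Guide RNA symbols taken before ribosomal ones gave a median of 0.71 against the FLAG:Ctrl RIP. Fewer probe sets enter under stricter filters and with 1 per list; the cause of the other shifts was not tested. Signal near background limits the dim members: 616 of 1321 lay below the filter.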

Other observations

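Multicopy Y-linked families expressed in spermatids, Ssty and Sly, made up 52 shared probe sets, of which 7 passed the level filter. A Sly entry, 10608442, was called higher at 7.60 in the MKRN1-labelled RIP, against 6.53 and 6.15 in the control RIPs and 6.03 and 7.31 in the inputs, and scored 0.86 with array centring. The Sly entry 10608586 read 9.14 there, but 7.92 and 9.31 in the control RIPs and 7.14 and 6.89 in the inputs. The X-linked genes Xlr4a to Xlr4c, in 10600131, were low on a single array: 4.18 in the IgG RIP, against 6.996 and 7.65 in the other RIPs and 5.69 and 6.94 in the inputs. Class I histocompatibility genes H2-T9, H2-T10 and H2-T22 read 9.15, 8.93 and 8.40 in the MKRN1-labelled, FLAG:Ctrl and IgG RIPs, all above the inputs of 8.06 and 7.42.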
